A study of Bos taurus with 8 samples.

Results

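This section follows the blood mononuclear cells of Tharparkar cattle through 7 days of heat, using the 4 samples of this breed among the 8 of the series. The members were taken by their labels: 2 files from Tharparkar at day 0 and 2 files from Tharparkar at day 7. The sample titles of both days read "under heat stress". Day 0 is taken here as the state before heat and day 7 as that after the heat period. Tharparkar is a zebu breed of the hot, dry north-west of the Indian subcontinent. The other 4 samples come from crossbred cattle at the same days, and they are used here in the filter on low counts, in the scaling and as values set beside those of Tharparkar. RNA of 5 animals was combined into 1 pool for every breed and day, so an effect of single animals cannot be separated from an effect of the pool. The labels record no unheated group held for the same 7 days, so heat and the passing of time cannot be told apart. They give neither the age nor the sex of the animals, nor the temperature.

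Peripheral blood mononuclear cells are the lymphocytes and monocytes left when granulocytes and red cells are removed from blood. Heat unfolds proteins, and cells answer within hours through heat shock factors, which switch on genes for chaperones that refold or clear them. Over days of heat, stress hormones and the traffic of cells between blood and tissue also alter what a blood sample contains. In bulk RNA, fewer cells of a type and less RNA per cell cannot be told apart. The tables hold Ensembl gene IDs without names, and 0 of the 24596 IDs matched a symbol in the gene table used here. Chaperone genes and the markers of blood cell types could therefore not be read, and the labelled cell type was not checked against its markers. What follows describes how many genes were higher or lower, how abundant they were and how they behaved in the other breed. Only 2 IDs in each direction are printed.

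Both files of a group were nearly the same library. Their counts differed less than independent reads of 1 library would: the median chi-square over genes, divided by the median that independent reads give, was 0.0762 at day 0 and 0.0799 at day 7 (10840 and 10600 genes). The 2 files were averaged, and every Tharparkar comparison rests on 1 library against 1 library, with no test and no measure of the spread between animals. The averaged libraries held 6701373 expected counts (reads assigned to genes, with ambiguous reads split) at day 0 and 5201318 at day 7. The library nearest to Tharparkar day 0 was not Tharparkar day 7. Across genes, the SD of the log2 ratio was 0.60 between the days of Tharparkar, but 0.50 between Tharparkar day 0 and crossbred day 7. It was 0.56 between Tharparkar day 7 and crossbred day 0, and 0.55 between Tharparkar day 0 and crossbred day 0. Crossbred day 0 was thus about equally near to the Tharparkar library of either day. The SD was 0.69 between the days of crossbred and 0.76 between the breeds at day 7. The libraries do not group by breed. Exchanged labels between pools would alter the meaning of every day 7 over day 0 value below, and they cannot be told apart from a difference between pools or breeds with the files used here.

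The first question was how much of the transcriptome differed between the days. Most genes differed little. Counts were scaled to CPM (counts per 1000000, with TMM factors that equalise the bulk of genes), and 11711 genes passed a filter on low counts. Their log2 changes ran from -0.32 at percentile 25 to 0.28 at percentile 75, and from -0.95 at percentile 5 to 0.89 at percentile 95. At day 7, 439 genes (3.75%) were at least 2-fold higher, a log2 fold change of 1 or more. At least 2-fold lower were 530 genes (4.53%). Higher genes were 45.3% of those past 2-fold, but 57.1% with the deposited TPM values (253 higher and 190 lower), so neither direction can be said to prevail.

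Counting error alone limits many of these values. An exact 95% interval on the 2 counts of a gene covers the reads sampled and not the animals. Its whole length lay above 2-fold higher for 76 genes (0.649%) and beyond 2-fold lower for 83 genes (0.709%). For 7409 genes, or 63.3%, the interval lay wholly inside 2-fold, so the depth was enough to place them there. The remaining 4143 genes, 35.4%, could not be placed on either side of 2-fold at this depth.

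**Figure D1:**
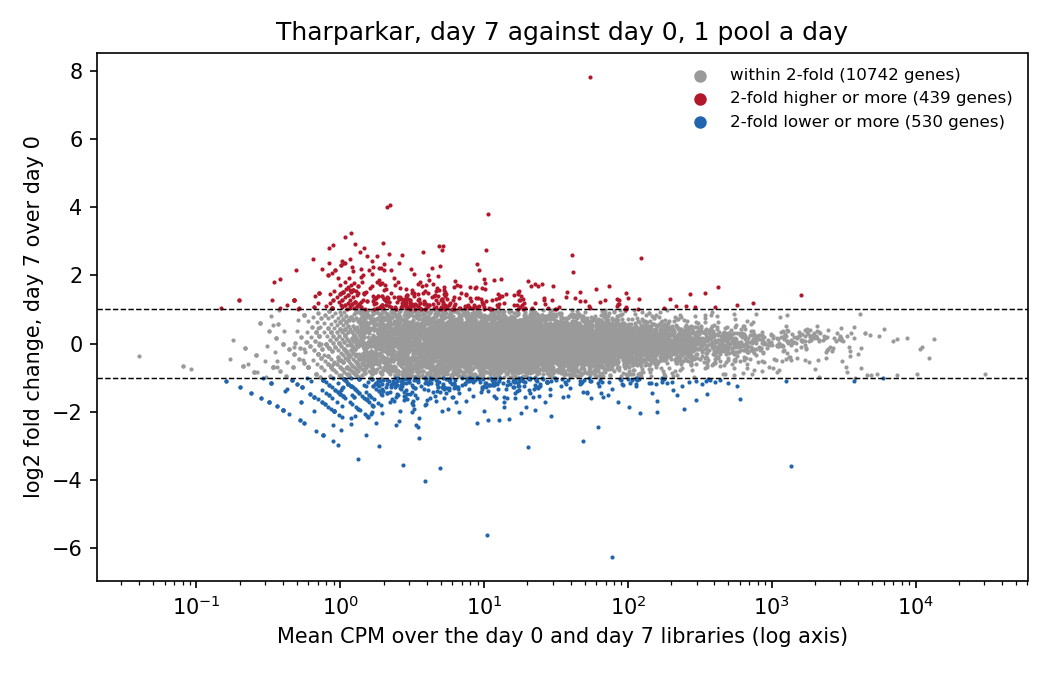
Each point is 1 of the 11711 genes, with its mean CPM in Tharparkar on a logarithmic x axis and its log2 fold change, day 7 over day 0, on the y axis. The 439 genes at least 2-fold higher are red and the 530 at least 2-fold lower are blue. Changes spread widely at low CPM and narrow as depth grows.

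Genes past 2-fold were mostly genes with few reads. Of 4023 genes under a mean of 10 CPM, 344 were at least 2-fold higher (8.55%) and 353 lower (8.77%), against 3.75% and 4.53% of all genes. With TPM these became 155 higher and 85 lower, and with FPKM 147 and 88, on scales where 1 is added to each value. The median counting interval in this class was 1.97 log2 units wide. At depths where it was 0.25 wide, among 1697 genes with 100 CPM or more, 16 were higher (0.943%) and 44 lower (2.59%). Beyond 2-fold with the whole interval were 10 of these 16 genes and 26 of these 44. The lower genes stayed more numerous in this deep class with total counts (18 higher and 32 lower), TPM (18 and 31) and FPKM (18 and 33). Its median log2 change was 0.01.

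**Figure D2:**
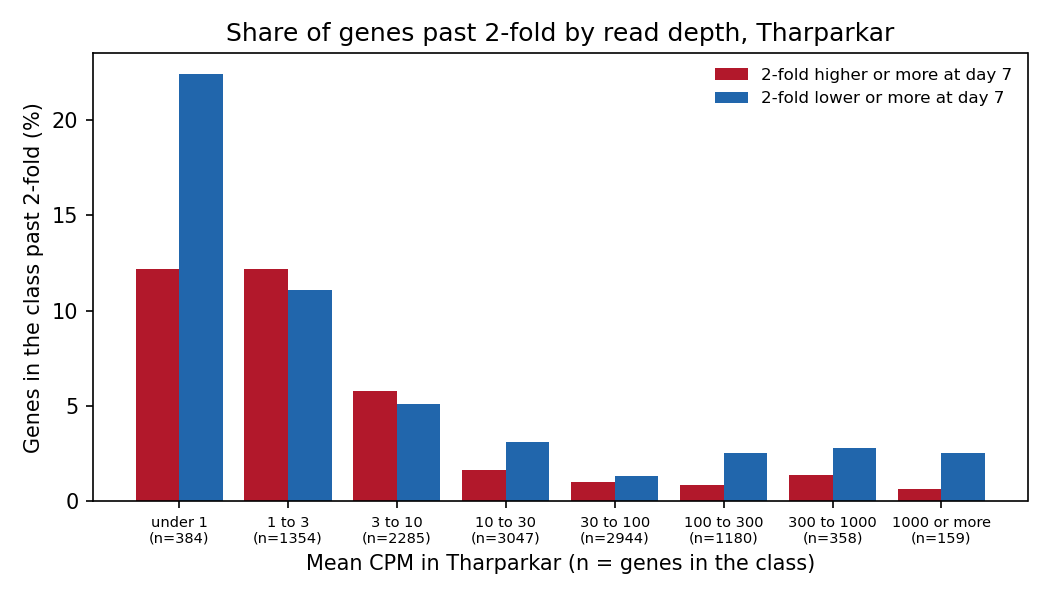
Bars give the percent of genes in each class of mean CPM that were at least 2-fold higher (red) or lower (blue) in Tharparkar at day 7, with the number of genes under each class. Both shares are largest under 3 CPM. From 10 CPM upwards the lower share is above the higher share in each class, an order that turns between 30 and 100 CPM with total counts, TPM and FPKM.

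The lower genes also carried more of the RNA. Together the 530 lower genes took 3.47% of all counts at day 0 and 1.503% at day 7. The 439 higher genes took 0.507% at day 0 and 1.35% at day 7. Genes within 2-fold held 95.9% of counts at day 0 and 97.1% at day 7. By construction these shares move with the direction that chose the genes, and their size is what they show.

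Gene structure was set beside these shares. Genes were put in 5 classes of about equal number by length. Among the shortest, of up to 1125 bases, 5.32% were at least 2-fold higher and 5.02% lower. Among the longest, from 3130 bases, the shares were 2.86% and 3.84%. The short genes also had fewer reads, with a median of 87.25 counts against 177. With at least 10 CPM required, the shares were 1.51% higher and 2.58% lower for the shortest and 1.1% and 1.9% for the longest. Genes with 1 listed transcript (10576) had 3.73% higher and 4.47% lower, and genes with 2 or more (1135) had 3.96% and 5.02%, both near the share of all genes. Counts that are not whole numbers mark genes that share reads with a similar gene. Of 1151 such genes, 5.56% were higher and 5.30% lower, against 3.55% and 4.44% of 10560 genes with whole counts.

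The most abundant RNAs were then examined, since they carry the most reads. Levels between genes are compared here as TPM, the authors' length-corrected transcripts per 1000000. The 5 genes with the most TPM at day 0 were all lower at day 7, by nearly the same factor. Together they held 9.93% of TPM at day 0 and 5.65% at day 7, while in crossbred cattle they held 5.26% at day 0 and 6.43% at day 7. The files pair none of them with a name. They were chosen by their level in 1 of the 2 libraries compared, which by itself favours a lower value in the other, so their change is a description.

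The most abundant gene had 26442 and 26582 TPM in the files of day 0, and 15038 and 15081 TPM in those of day 7. Its log2 fold change was -0.90 (counting interval -0.91 to -0.89). The other 4 genes ranged from -0.84 to -0.99. Day 0 stood above day 7 in both files for each of the 5. In crossbred cattle the same 5 genes had log2 changes from 0.12 to 0.31, and all 5 counting intervals lay above 0. The crossbred levels of the leading gene were 14924 TPM at day 0 and 17866 at day 7. Tharparkar day 0 thus stood above the other 3 libraries, a position that choosing genes by this library favours.

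Ranks 6 to 10 at day 0 behaved otherwise. Of these 5 genes, 4 were slightly higher at day 7, with log2 changes from 0.13 to 0.26, and 1 was lower, at -0.41. All 5 had the opposite sign in crossbred cattle, from -0.39 to 0.19, as had 63.4% of all genes. The sixth gene, with 11116 TPM at day 0 and 14072 at day 7, moved to rank 2. Counts of ranks 6, 9 and 10 are not whole, which makes these 3 genes uncertain. The list itself was stable: 9 of the 10 leading genes and 87 of the 100 leading genes were the same at both days. Of the 113 genes among the leading 100 at either day, 0 were at least 2-fold higher and 10 were at least 2-fold lower, or 2 lower with TPM or FPKM themselves. In CPM, 3.75% of all 11711 genes were at least 2-fold higher and 4.53% lower. Among genes with 100 CPM or more these shares were 0.943% and 2.59%.

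**Figure D3:**
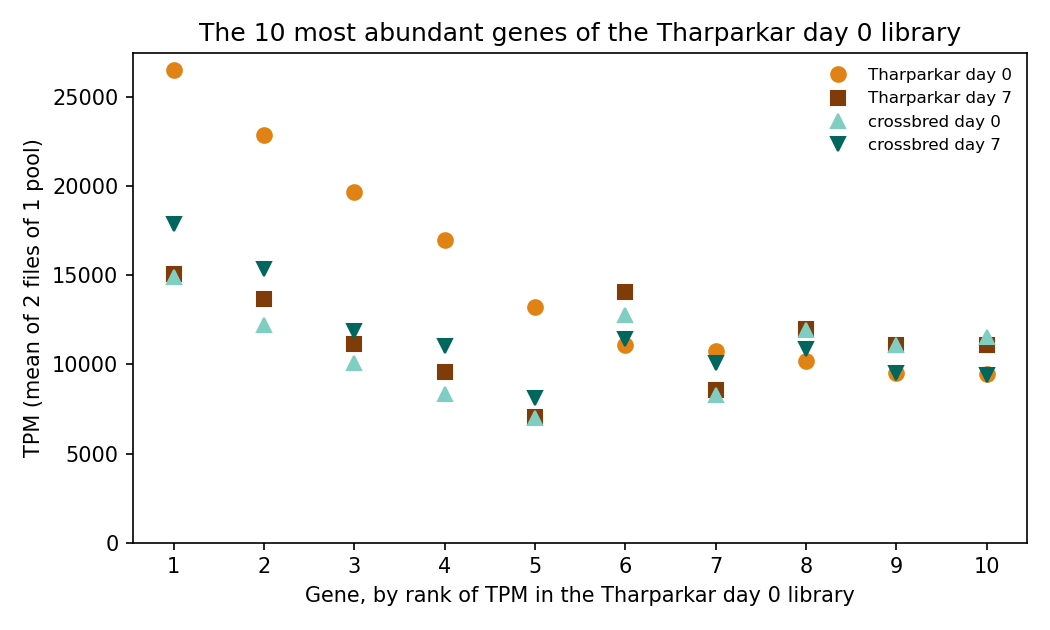
The y axis is TPM, as the mean of the 2 files of a pool, and the x axis ranks the 10 genes with the most TPM at Tharparkar day 0. Circles and squares are Tharparkar at day 0 and day 7, and triangles are crossbred at both days. For the first 5 genes the Tharparkar day 0 level lies above the other 3 libraries, which ranking by that library favours. From rank 6 the 4 libraries lie close together.

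The largest single changes were taken among 5238 genes with whole counts in all 4 files, at least 20 CPM in the higher library and files that do not overlap between the days. Of these 5238 genes, 64 were at least 2-fold higher and 123 at least 2-fold lower, numbers that came to 68 and 77 with TPM. For comparison, 3.75% of all 11711 genes were at least 2-fold higher in CPM and 4.53% lower. The 15 highest of the 5238 had log2 changes from 1.51 to 3.78 and the 15 lowest from -1.70 to -3.60. All 30 counting intervals lay wholly beyond 2-fold, which choosing the largest changes favours. Genes outside these criteria reached further, to 7.81 (a value that depends on the prior count) and -6.25, both in genes whose counts are not whole. The higher ones were moderately expressed, with a median of 46.1 CPM at day 7, and only 1 of 15 had a mean of 100 CPM or more. Of the 15 lower genes, 5 had a mean of 100 CPM or more.

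ENSBTAG00000019839, a gene with 2 listed transcripts, had the largest increase among the genes that met the criteria. Its files held 7 and 8 counts before heat and 103 and 101 after it. Its log2 fold change was 3.78 (counting interval 2.94 to 5.22), from 1.204 to 20.1 CPM. Per length it was a rare transcript at both days, at 0.225 TPM and then 4.46 TPM. On the log2(TPM + 1) scale the change was 2.16, below that of the next gene, so its rank depends on the scale. In crossbred cattle the days were reversed, with 88 and 87 counts before heat and 13 and 11 after it, a log2 change of -2.64 (-3.88 to -2.0).

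ENSBTAG00000008951, with 1 transcript, came second among them in CPM, and was above the first with TPM, at 2.46. The gene at rank 3 in CPM went from 17.0 to 102 TPM and was above both on the log2(TPM + 1) scale. ENSBTAG00000008951 had 71 and 72 counts before heat and 353 and 359 after it, a log2 fold change of 2.59 (2.24 to 2.99). Its level was 4.59 TPM at day 0 and 29.7 TPM at day 7. Crossbred cattle had 10.9 TPM at day 0 and 10.4 at day 7, with a log2 change of -0.16 whose interval, -0.46 to 0.14, includes 0. Tharparkar day 7 was thus the highest and Tharparkar day 0 the lowest of its 4 libraries, with the crossbred pair between them.

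ENSBTAG00000002006 had the largest decrease among the genes that met the criteria, and the most CPM of the 30. The day 0 files held 15632 and 15485 counts, and the day 7 files 1052 and 1027. That is 2498 CPM against 205 CPM, or 12.2-fold lower, with a log2 fold change of -3.60 (-3.70 to -3.51). The level per length was 456 TPM at day 0 and 39.6 TPM at day 7. Crossbred cattle had 262 TPM at day 0 and 435 TPM at day 7, a log2 change of 0.63 (0.60 to 0.67). Of the 4 libraries, Tharparkar day 7 stood far below the rest.

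ENSBTAG00000009812 had the second largest decrease among them. Before heat it had 529 and 533 counts, and after it 58 and 59, which is a log2 fold change of -2.85 (-3.28 to -2.48). In TPM this was 59.6 at day 0 and 8.55 at day 7. Crossbred cattle went the other way, from 21.7 to 133 TPM, with a log2 change of 2.51 (2.32 to 2.73). The order of its libraries, from the top, was crossbred day 7, Tharparkar day 0, crossbred day 0 and Tharparkar day 7.

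The 30 genes were next read in crossbred cattle, whose libraries had no part in choosing them beyond the filter and the scaling. Among the 15 higher genes, 14 had a negative change in crossbred, 13 with an interval below 0 and 10 at least 2-fold lower, where 5.35% of all 11711 genes were at least 2-fold lower in crossbred. Their median crossbred log2 change was -1.18, and the range was -2.64 to 0.02. All 15 lower genes had a positive change in crossbred, 14 with an interval above 0 and 9 at least 2-fold higher, against 7.49% of all genes. Their median was 1.46, ranging from 0.04 to 3.49. Across the 5238 eligible genes, 67.1% had opposite signs in the breeds, against which these 29 of 30 can be read. The difference between the breeds was not tested, since each side is 1 pool.

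**Figure D4:**
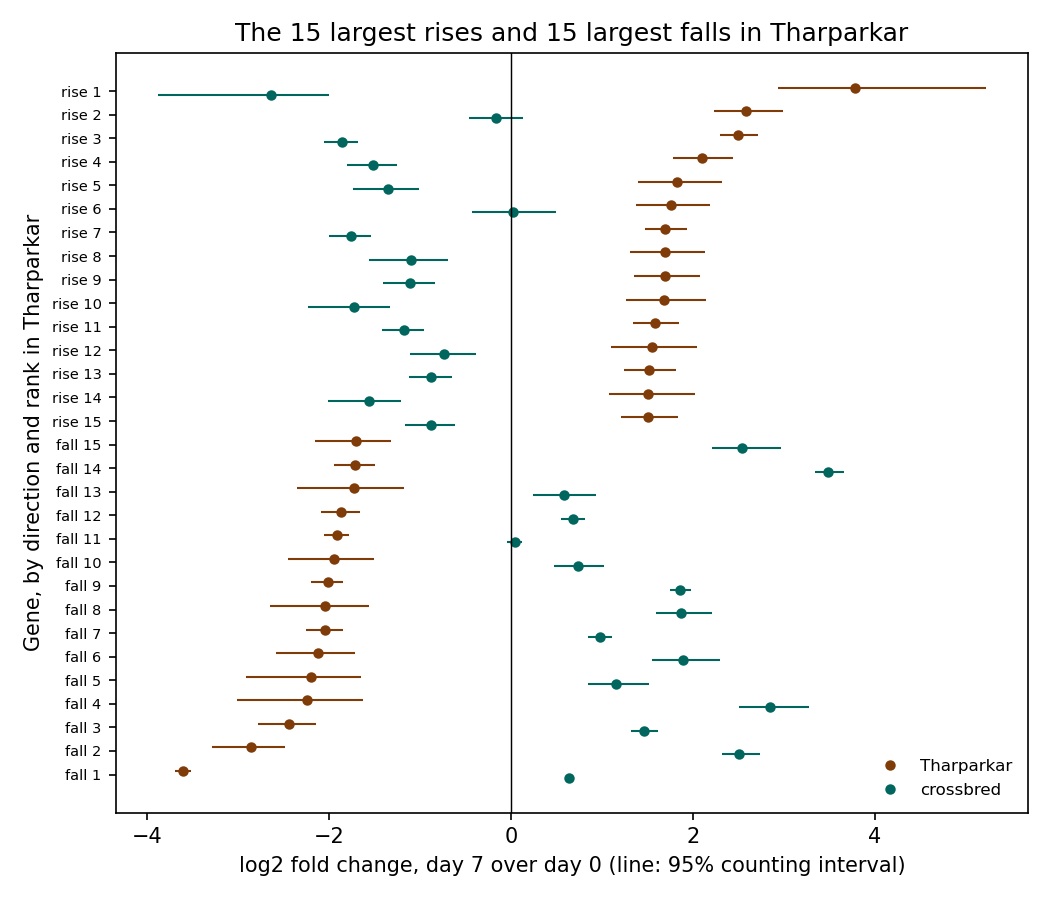
The x axis is the log2 fold change, day 7 over day 0, for Tharparkar (brown) and crossbred (green), and lines are 95% counting intervals. Rows are the 15 highest and 15 lowest genes of Tharparkar that met the criteria, by rank. Crossbred values lie on the other side of 0 in 29 of 30 rows.

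The same held less strongly for all genes past 2-fold. The 439 genes higher in Tharparkar had a median crossbred log2 change of -0.66, with 79.0% below 0. In crossbred, 151 of them were at least 2-fold lower and 17 at least 2-fold higher. The 530 lower genes had a median of 0.72, with 76.2% above 0. Of these, 212 were at least 2-fold higher in crossbred and 26 at least 2-fold lower. Opposite signs were not limited to large changes: they were found in 62.1% of the genes within 2-fold in Tharparkar, 77.5% of those past it and 63.4% of all genes. The medians of the 439 and 530 genes kept their signs with total counts (-0.56 and 0.82), TPM (-0.40 and 0.59) and FPKM (-0.38 and 0.59). In counts, the 439 higher genes took 1.103% of crossbred reads at day 0 and 0.544% at day 7.

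A few genes were nearly absent on 1 day. With 3 counts or fewer taken as the floor of a library and at least 20 counts on the other day, 4 genes were near absent at day 0 and 7 at day 7. The bounds are raw counts over all 24596 IDs and were not scaled to depth. The day 7 library was smaller (5201318 expected counts against 6701373), so the floor is reached more easily at day 7. Against the floor, with depth scaled, these genes were between at least 5.55-fold and at least 227-fold different. Counts were whole for 1 of the 4 and 6 of the 7. Only 1 gene in each direction reached 100 counts, and neither had whole counts, so both are uncertain. The one higher at day 7 went from 0 and 2.6 counts in the day 0 files to 549.1 and 560.24, with mean counts of 1.56 and 0 in crossbred. The one lower at day 7 went from 136.92 and 120.62 counts to 0 and 1.48. It was also lower at day 7 in crossbred cattle, with mean counts of 1437 before heat and 146.8 after it.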

How the data were processed

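Per the submitters' processing notes, Bowtie2 and RSEM were used; versions, genome build, annotation and filters are not given in the sources used here. Per the file headers, the authors deposited expected counts, TPM and FPKM per Ensembl gene ID. Per the labels' protocols, total RNA with an integrity number above 8 was used for the libraries. The 2 files of each of the 4 groups were averaged. Genes were filtered on these means with edgeR 4.0.16 (filterByExpr, over all 4 libraries), scaled with TMM factors and turned into log2 CPM with a prior count of 2. A gene was past 2-fold at a log2 change of 1 or more in size. Counting intervals are exact Clopper-Pearson intervals on counts rounded to whole numbers, computed with scipy 1.17.1. Reads carry no molecular identifiers, so intervals cover counting error only. Counts were called whole within 0.01.

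Members and lists were chosen with earlier results of these data known. The 30 lists, of 807 symbols for heat shock, stress, immune and cell type genes, were not evaluated, since 0 symbols occur in the tables. The rule for named genes asked for the 15 largest changes in each direction, with a gene symbol, 20 CPM or more in the higher library, whole counts and files that do not overlap. It was applied without the symbol, and its parts on list members and fixed heat shock and reference genes could not be followed. The 10 genes with the most TPM and genes with 3 or fewer counts on 1 day and 100 or more on the other were also asked for. The bound of 20 counts for near absence and the classes by depth, length and transcripts were set after the data were seen. Steps were tested on simulated data. Alternatives were DESeq2 1.42.0 size factors, total counts, deposited TPM or FPKM as log2(value + 1), other filters, another prior count, 1.5-fold, single files, and intervals without 0.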

Additional observations from a re-analysis of the deposited data

Results flagged for a closer look

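Some Tharparkar values had the opposite sign in crossbred cattle with counting intervals on both sides that leave out 0. The difference between the breeds' log2 changes, Tharparkar minus crossbred, was 6.43 for ENSBTAG00000019839, -4.24 for ENSBTAG00000002006 and -5.36 for ENSBTAG00000009812. For the 5 genes with the most TPM at Tharparkar day 0, the difference of the medians was -1.07. These differences were not tested, since each side is 1 pool. Exchanged labels between pools could not be checked here, and cannot be told apart from a difference between the breeds.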

How the results depend on the processing

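No paired analysis was possible because each side is 1 pool and no result comes from a test. Other settings for gene lists were not run, since no list could be read without gene names. Counts of genes past 2-fold moved by more than 1.5 times in these cases, higher genes first. They were 253 and 190 with TPM, 243 and 200 with FPKM, 746 and 878 with no filter, 95 and 177 at a mean of at least 10 CPM, and 1287 and 1510 at 1.5-fold. The majority direction turned with the scaling: higher genes were 52.5% with total counts, 57.1% with TPM and 54.9% with FPKM. They were 34.9% at a mean of at least 10 CPM. The median over all genes shifted by 0.06 log2 units with total counts and by 0.07 with TPM. The filters change which genes are counted, and a bound of 1.5-fold lets more genes pass by definition. For the scalings the cause was not tested. DESeq2 size factors, a prior count of 0.5, intervals without 0, single files and, chosen after seeing the data, whole counts only moved none of the 3 summary values past these limits. The 4 named IDs and the median of the 5 most abundant genes kept their sign under 11 of 11 alternatives. ENSBTAG00000019839 had log2 changes of 2.16 with TPM and 2.14 with FPKM, where 1 is added to a low value. At this depth 35.4% of genes could not be placed on either side of 2-fold.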
